A study of Mus musculus with 27 samples.

Results

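Genes that build or cut the matrix around cells were followed on Affymetrix arrays through mouse bone marrow cultures: the matrix protein gene Fn1, the metalloproteinase genes Mmp12, Mmp13, Mmp14, Mmp19 and Adam19, the inhibitor genes Timp1 and Timp2, and the urokinase genes Plau and Plaur. These are 10 of the 19935 genes tested. Each was taken from a probe set that the platform annotation pairs with that symbol alone, and the rule prefers the probe set with the highest mean signal over all arrays. Every one of the 10 had 1 such probe set, so no gene's values were chosen by their level. Mean log2 signals over the 27 arrays, the value the rule selected on, ran from 5.89 (Timp1) to 10.87 (Plaur), and they are not comparable between probe sets. The genes themselves were picked with earlier results of these data known, so counts over the 10 describe them and support nothing more.

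Bone marrow came from femurs and tibiae of C57BL/6 mice aged 8 to 12 weeks. They were grown in Flt3 ligand (abbreviated Flt3-L), which pushes marrow progenitors toward dendritic and related myeloid cells. It was supplied at about 200 ng/ml by transfected B16 tumor cells. Cyclosporin A (CsA), which blocks the phosphatase calcineurin and so keeps NFAT transcription factors out of the nucleus, was given at 2 µg/ml 30 min before Flt3-L and stayed in the culture. The 9 groups of 3 arrays each were unstimulated marrow, cultures with Flt3-L alone and cultures with Flt3-L plus CsA, each culture being sampled at 12 h, 24 h, 48 h and 11 days. No genetic change is given for any group, and the labels do not say whether unstimulated cells were fresh, so ligand and time in culture cannot be told apart. They call the 3 arrays of a group biological replicates but do not say whether each came from its own mouse.

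Metalloproteinases of the MMP family are made as inactive zymogens and, once activated, cut collagens, elastin, fibronectin and other matrix proteins. TIMP proteins bind the active site of these enzymes and block it. Urokinase, the product of Plau, turns plasminogen into plasmin at the cell surface, where the receptor encoded by Plaur holds it, and plasmin both digests fibrin and activates several MMP zymogens. Macrophages and osteoclasts are major users of both systems, and blood monocytes and marrow stroma make fibronectin.

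Signals are given as deposited, on a linear scale, array by array. Differences are in log2 units with their standard error (SE) from 1 limma model over all 27 arrays, and a gene was called higher or lower at an adjusted p below 0.05. Array medians lay between 114.2 and 124.8. By correlation over all probe sets, 25 of 27 arrays had their nearest neighbour within their group. The exceptions were CsA array 3 at 12 h and CsA array 3 at 24 h, each nearest to the Flt3-L array with its number and time. The cultures expressed monocyte and macrophage markers, whose summed signal over 12 genes rose from 8772 to 9663 on unstimulated arrays to 44747 to 46137 after 11 days of Flt3-L. Neutrophil markers (9 genes) went from 55893 to 56770 down to 1756 to 1968. In such mixed cultures fewer cells of a type and less RNA per cell cannot be told apart.

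**Figure D1:**
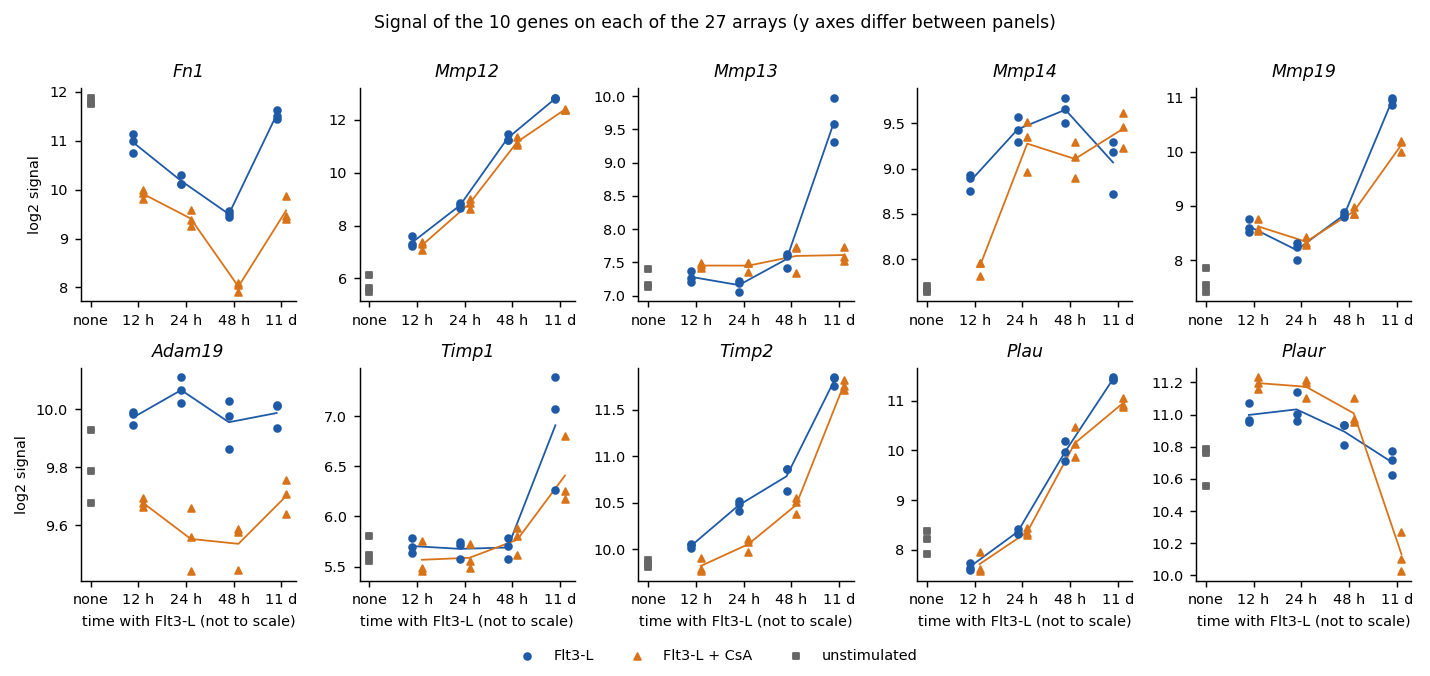
Log2 signal of each of the 10 genes on every array, with time in culture on the x axis (not to scale), squares for unstimulated cells, circles for Flt3-L alone and triangles for Flt3-L with CsA, and lines through group means. Fn1 and Adam19 lie lower with CsA at all 4 times, while Mmp13 separates at 11 days, where it lies between 631 and 1006 without CsA and between 183 and 213 with it on the linear scale.

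The first question was how these genes changed as the marrow was cultured with Flt3-L alone. By 11 days 8 of the 10 genes were higher than in unstimulated cells, by unlike courses. Mmp12 climbed at every step, and the protease genes Plau and Mmp19 and the inhibitor gene Timp2 rose strongly by 11 days. Plau first fell at 12 h, Mmp14 fell from 48 h to 11 days, and Adam19 moved little. The matrix gene Fn1 dropped until 48 h and then recovered. At 12 h 6 of the 10 genes were called higher and 2 lower than in unstimulated cells, against 17.8% and 18.1% of all genes. The counts were 6 and 1 at 24 h (17.9% and 17.7% of all genes), 7 and 1 at 48 h (18.5% and 18.6%), and 8 and 1 at 11 days (27.2% and 24.8%). The median difference of the 10 genes was 0.18, 0.30, 0.63 and 1.69 at these times, beside 0.05, 0.04, 0.01 and 0.02 over all genes. Counting each step instead, 4 genes rose and 2 fell from 12 h to 24 h (5.59% and 5.52% of all genes), 5 rose and 1 fell from 24 h to 48 h (9.71% and 7.43%), and 7 rose and 2 fell from 48 h to 11 days (24.2% and 18.8%). The 4 comparisons with unstimulated cells share those arrays.

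Fn1 encodes fibronectin, the glycoprotein that links collagen and other matrix components to integrins. Its signal was 3479, 3772 and 3461 on the unstimulated arrays, 1722, 2250 and 2046 after 12 h of Flt3-L, 1106, 1261 and 1116 after 24 h, and 752, 724 and 697 after 48 h. The 4 groups did not overlap, and each step down was called, at -0.84 ± 0.11 from unstimulated to 12 h, -0.78 ± 0.11 from 12 h to 24 h and -0.68 ± 0.11 from 24 h to 48 h. At 11 days the signal had returned to 2916, 3178 and 2796, a rise of 4.09-fold over 48 h (2.03 ± 0.11, adjusted p = 2.4e-14). All 3 arrays still lay below the unstimulated ones, by -0.27 ± 0.11 (adjusted p = 0.035), a call lost without unstimulated array 1 (adjusted p = 0.051) or array 2 (0.12), without Flt3-L array 1 (0.081) or array 3 (0.12) and with each array's median subtracted (0.089).

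Mmp12, the macrophage metalloelastase, had the widest range of the 10 genes. Unstimulated arrays read 50.5, 70.0 and 45.5, and the 12 h arrays 195, 156 and 148. Signals of 442, 459 and 405 followed at 24 h, 2800, 2413 and 2397 at 48 h, and 7003, 7271 and 7150 at 11 days. No group overlapped the next, and the steps were 3.04-fold, 2.63-fold, 5.82-fold and 2.82-fold. The whole rise was 7.04 ± 0.13 in log2 units (adjusted p = 4.8e-24). How far the lowest signals lay above background was not analysed here.

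Mmp13 encodes collagenase 3, which cuts fibrillar collagen. No change was called on the first day, with 168, 140 and 143 on unstimulated arrays, 148, 153 and 166 at 12 h, and 134, 149 and 146 at 24 h. At 48 h it read 198, 193 and 172, higher than unstimulated by 0.32 ± 0.12 (adjusted p = 0.036), a call lost without unstimulated array 2 (adjusted p = 0.14), unstimulated array 3 (0.12), or Flt3-L 48 h array 1 (0.12) or 2 (0.099). The large change came between 48 h and 11 days, when the signal reached 766, 631 and 1006 (4.2-fold, 2.07 ± 0.12, adjusted p = 1.8e-13).

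Mmp14 and Mmp19 rose early and then parted. Mmp14 encodes a membrane-anchored MMP that cuts collagen at the cell surface and activates gelatinase A. It went from 202, 208 and 200 on unstimulated arrays to 430, 488 and 475 at 12 h (1.19 ± 0.14) and to 728, 881 and 809 at 48 h (1.98 ± 0.14 above unstimulated). At 11 days it read 422, 582 and 629, lower than at 48 h in all 3 arrays (-0.58 ± 0.14, adjusted p = 8.2e-04). Mmp19, a secreted MMP, read 186, 231 and 172 on unstimulated arrays and 433, 389 and 366 at 12 h (1.02 ± 0.09). It dipped to 303, 318 and 258 at 24 h (-0.44 ± 0.09, adjusted p = 0.0021) before reaching 474, 455 and 442 at 48 h and 1853, 1982 and 2033 at 11 days, 10-fold above unstimulated cells (3.33 ± 0.09).

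Adam19, a membrane-anchored protease of the disintegrin family that sheds cell surface proteins, moved little. Its signal lay between 819 and 974 on unstimulated arrays and between 932 and 1105 on the 12 arrays with Flt3-L alone. It was called higher at 12 h (0.18 ± 0.06, adjusted p = 0.032), 24 h (0.27 ± 0.06, adjusted p = 0.0013) and 11 days (0.19 ± 0.06, adjusted p = 0.013) but not at 48 h (0.16 ± 0.06, adjusted p = 0.052), where 5 of 9 other settings called it (0.0046 to 0.041), as did leaving out unstimulated array 2 (0.0085) or Flt3-L array 1 (0.022). At 12 h the call was lost without unstimulated array 1 (adjusted p = 0.19) or array 3 (0.081), without Flt3-L array 2 (0.081) or array 3 (0.079), with array medians subtracted (0.14) and with only the groups compared (0.068). At 11 days it was lost without unstimulated array 1 (adjusted p = 0.11) and with only the groups compared (0.056).

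The inhibitor genes reached their highest levels at 11 days. Timp2, whose product blocks MMPs and also takes part in gelatinase A activation by the Mmp14 enzyme, read 897, 941 and 918 on unstimulated arrays, 1360, 1439 and 1472 at 24 h, 1584, 1868 and 1859 at 48 h, and 3696, 3456 and 3679 at 11 days (1.97 ± 0.06 above unstimulated, adjusted p = 3.1e-19). Timp1, a secreted inhibitor with a broad range of targets, lay between 47.1 and 55.9 on unstimulated arrays and between 47.6 and 55.3 on arrays of the first 48 h. Only at 11 days did it separate, with 76.9, 135 and 167 (1.25 ± 0.18, adjusted p = 1.4e-06), the most spread group of any of the 10 genes.

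The urokinase gene and its receptor did not move together. Plau fell from 242, 332 and 296 to 200, 214 and 194 at 12 h (-0.51 ± 0.12, adjusted p = 0.002). It was back at 326, 321 and 341 by 24 h and rose to 1166, 887 and 1003 at 48 h and 2727, 2763 and 2846 at 11 days (3.27 ± 0.12 above unstimulated, 9.67-fold). Plaur had 1732, 1767 and 1506 on unstimulated arrays and 2001, 2158 and 1981 at 12 h (0.30 ± 0.07, adjusted p = 0.0015). By 11 days it read 1576, 1682 and 1751, overlapping the unstimulated arrays, with a 95% interval of the difference from -0.14 to 0.15. The 48 h arrays were called higher than unstimulated by 0.19 ± 0.07, a call lost without unstimulated array 3 (adjusted p = 0.24), without Flt3-L 48 h array 2 or array 3 (both 0.10), with array medians subtracted (0.059) and with only the groups compared (0.08).

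**Figure D2:**
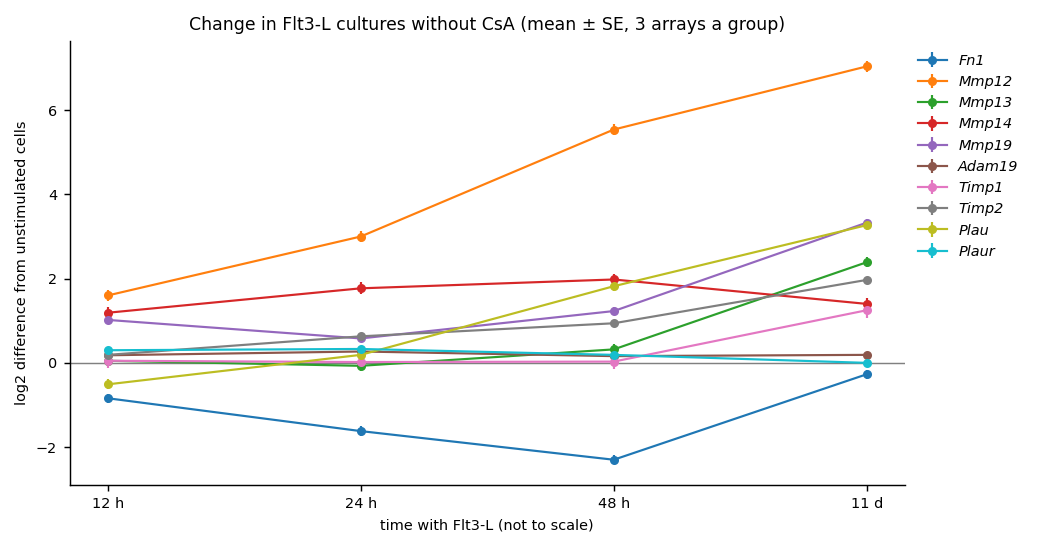
Log2 difference of each gene from unstimulated cells after 12 h, 24 h, 48 h and 11 days of Flt3-L without CsA (x axis, not to scale), as mean ± SE with 3 arrays a group. Mmp12 ends at 7.04, Mmp19 and Plau end at 3.33 and 3.27, and Fn1 reaches its lowest point of -2.30 at 48 h.

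The second question was what CsA changed. Every called difference among the 10 genes was a lower signal with CsA. Fn1 and Adam19 were lower at all 4 times, Timp2 at the 3 early times, Mmp14 at 12 h and 48 h, and Mmp12, Mmp13, Mmp19, Plau and Plaur at 11 days alone. Counts of genes called lower were 4 of 10 at 12 h, 3 at 24 h, 4 at 48 h and 7 at 11 days, against 3.91%, 2.19%, 2.34% and 7.08% of all genes. None of the 10 was called higher at any time by the limma model over all arrays, against 2.82%, 1.60%, 2.17% and 4.92% of all genes. Some other settings called Plaur higher at 12 h and Mmp14 higher at 11 days. At an unadjusted p under 0.05, Plaur at 12 h, Mmp13 at 24 h and Mmp14 at 11 days were higher. Median differences were -0.13, -0.05, -0.05 and -0.50, beside -0.04, -0.01, 0.02 and 0.03 over all genes. All 3 CsA arrays lay below all 3 arrays without CsA for 4, 3, 4 and 7 of the 10 genes, which held for 16.3%, 9.19%, 7.45% and 12.6% of all genes. They lay above for 2, 1, 1 and 0 of the 10, against 12%, 7.41%, 11.7% and 17.2%. At 12 h, subtracting array medians turned the split of all called genes from 562 higher and 779 lower to 75.3% higher, and it left 2 of the 10 genes called lower.

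**Figure D3:**
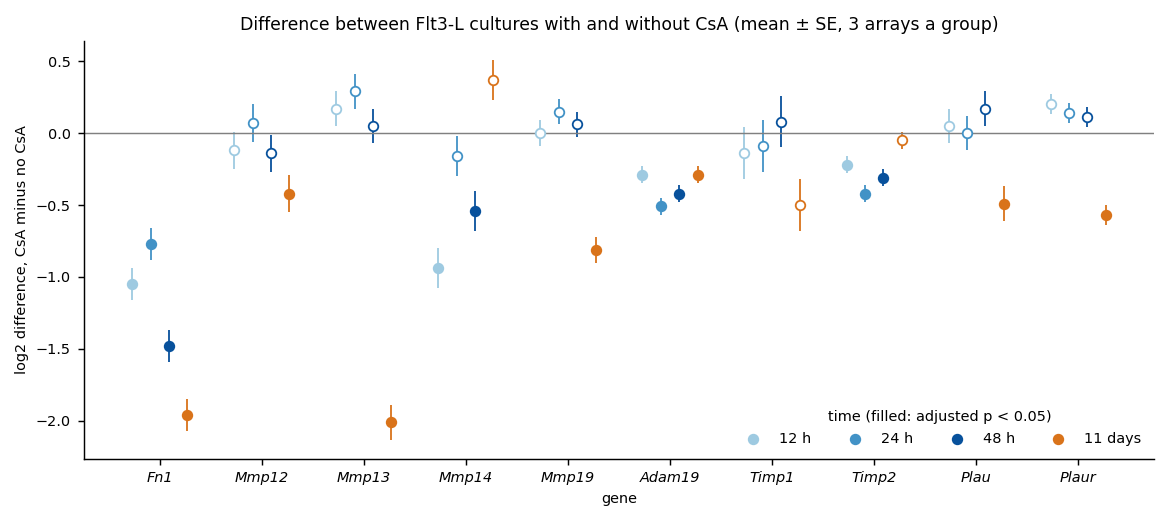
Log2 difference between Flt3-L cultures with and without CsA for each gene at 12 h, 24 h, 48 h and 11 days, as mean ± SE with 3 arrays a group, with filled points at an adjusted p below 0.05. All filled points lie below 0, and the lowest are Mmp13 and Fn1 at 11 days, at -2.01 and -1.96.

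Fn1 was lower with CsA at every time. At 12 h the CsA arrays read 900, 1026 and 971 (-1.05 ± 0.11, adjusted p = 3.2e-06), and at 24 h 613, 771 and 663 (-0.77 ± 0.11, adjusted p = 5.6e-05). At 48 h they read 271, 241 and 265 (-1.48 ± 0.11, adjusted p = 3.7e-09), the lowest of any group, and at 11 days 707, 932 and 671, 3.88-fold below the cultures without CsA (-1.96 ± 0.11, adjusted p = 1.3e-12). No CsA array overlapped an array without CsA of its own time. With CsA too it fell until 48 h and then rose, by 1.56 ± 0.11 between 48 h and 11 days. Counting such steps in the CsA cultures, 4 of the 10 genes rose and 2 fell from 12 h to 24 h (8.13% and 8.23% of all genes), 4 rose and 1 fell from 24 h to 48 h (13% and 9.24%), and 7 rose and 1 fell from 48 h to 11 days (23.8% and 19.3%). Subtracting array medians moved the share of rises among all calls from 12 h to 24 h from 49.7% to 38.3%. The CsA difference itself was larger at 11 days than the mean of the early differences, by -0.86 ± 0.12 (adjusted p = 1.9e-05).

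With CsA, no rise of Mmp13 from 48 h to 11 days was detected. The 3 CsA arrays read 183, 213 and 192, inside the range of 162 to 212 of the 48 h CsA arrays but for the second, and the change between these times was 0.01 ± 0.12 (95% interval -0.23 to 0.26). Against cultures without CsA the difference was -2.01 ± 0.12, or 4.03-fold (adjusted p = 6.7e-12). At 12 h, 24 h and 48 h it was 0.17 ± 0.12, 0.29 ± 0.12 and 0.05 ± 0.12, and none was called, although all 3 CsA arrays lay above those without CsA at 12 h and 24 h. The difference at 11 days departed from the mean of these by -2.18 ± 0.14 (adjusted p = 4.1e-11).

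Mmp19 and Mmp12 still rose with CsA, but less by 11 days. Mmp19 read 1024, 1173 and 1161 with CsA at 11 days against 1853, 1982 and 2033 without it (-0.81 ± 0.09, adjusted p = 6.0e-07), and its early differences lay between 0.00 and 0.15. Mmp12 read 5325, 5434 and 5270 against 7003, 7271 and 7150 (-0.42 ± 0.13, adjusted p = 0.03). Although these arrays did not overlap, the Mmp12 call was lost without any of the 6 arrays compared, at adjusted p values from 0.057 (without Flt3-L array 1) to 0.087 (without CsA array 3), and each of the other four gave a value between these. Earlier, Mmp12 with and without CsA overlapped at each time, with differences of -0.12, 0.07 and -0.14, each ± 0.13.

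Mmp14 was called lower at 12 h and 48 h. CsA arrays at 12 h read 249, 249 and 225 against 430, 488 and 475 without CsA (-0.94 ± 0.14, adjusted p = 2.2e-04), close to the unstimulated range of 200 to 208. By 24 h they had reached 501, 729 and 653, which overlapped the 630, 761 and 691 without CsA (-0.16 ± 0.14, adjusted p = 0.74). At 48 h they read 477, 626 and 561 (-0.54 ± 0.14, adjusted p = 0.017), a call lost without CsA array 1 (adjusted p = 0.13), Flt3-L array 2 (0.094) or Flt3-L array 3 (0.057). At 11 days the CsA arrays read 602, 705 and 786 and overlapped those without CsA (0.37 ± 0.14, adjusted p = 0.08). That difference was called higher with a replicate block (adjusted p = 0.0021), with array weights (0.015) and with the arrays quantile normalised again (0.037). The array pairs that the block assumes correlated at only 0.01, 0.108 and -0.039 at 11 days, against 0.076 for the highest other pair. It was also called without Flt3-L array 3 (0.032) and without CsA array 1 (0.039). The change from the mean early difference to that at 11 days was 0.92 ± 0.16 (adjusted p = 1.8e-04).

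Adam19 was lower with CsA at each time, by 1.22-fold to 1.43-fold. Its differences were -0.29 ± 0.06 at 12 h (adjusted p = 0.0077), -0.51 ± 0.06 at 24 h (adjusted p = 1.1e-05), -0.42 ± 0.06 at 48 h (adjusted p = 1.3e-04) and -0.29 ± 0.06 at 11 days (adjusted p = 0.0023). The 12 CsA arrays lay between 696 and 864, and all were below the lowest of the 12 arrays without it, at 932. The 12 h call was lost with array medians subtracted (adjusted p = 0.067).

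Timp2 was lower with CsA until 48 h and overlapped at 11 days. CsA arrays read 870, 956 and 886 at 12 h (-0.22 ± 0.06, adjusted p = 0.039), 1004, 1083 and 1105 at 24 h (-0.42 ± 0.06, adjusted p = 1.5e-04), and 1328, 1496 and 1453 at 48 h (-0.31 ± 0.06, adjusted p = 0.003), each below all arrays without CsA. The 12 h call was lost without any of the 6 arrays compared (adjusted p from 0.051 without CsA array 3 to 0.15 without CsA array 1, the other four between), with array medians subtracted (0.21) and with only the groups compared (0.10), which also ended the 48 h call (0.11). At 11 days the CsA arrays read 3471, 3372 and 3634 and overlapped the others, with a 95% interval from -0.18 to 0.08. Timp1 was not called at any time. At 11 days it read 76.1, 72.0 and 112 with CsA and 76.9, 135 and 167 without (-0.50 ± 0.18, adjusted p = 0.075). It was called without Flt3-L array 1 (-0.82, adjusted p = 1.8e-04), without CsA array 3 (-0.70, adjusted p = 0.015) and with a replicate block (adjusted p = 0.013).

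Plau and Plaur were both lower with CsA at 11 days. Plau read 1924, 2136 and 1875 with CsA against 2727, 2763 and 2846 without (-0.49 ± 0.12, adjusted p = 0.0078), and its early differences of 0.05, 0.00 and 0.17, each ± 0.12, were not called. Plaur read 1044, 1232 and 1098 against 1576, 1682 and 1751 (-0.57 ± 0.07, adjusted p = 1.5e-06), which put the CsA arrays below every other group, unstimulated cells included. Its early differences were 0.20, 0.14 and 0.11, each ± 0.07, with adjusted p values of 0.085, 0.41 and 0.52. The 12 h difference was called with array weights (adjusted p = 0.023) and with a replicate block (0.03).

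Whether the CsA difference varied with time was tested directly for each gene. An F test over the 4 differences called 6 of the 10 genes, against 9.82% of all genes: Mmp13, Plaur, Fn1, Mmp19, Mmp14 and Timp2. The Timp2 call (adjusted p = 0.033) was lost without Flt3-L 24 h array 2 (0.060) or array 3 (0.069), Flt3-L 11 days array 2 (0.082) or array 3 (0.053), CsA 24 h array 1 (0.064), and CsA 11 days array 1 (0.060) or array 3 (0.097), and with array medians subtracted (0.14). For Adam19 (adjusted p = 0.21), Mmp12 (0.26), Timp1 (0.38) and Plau (0.053) no difference between times was called, although Timp1 was called without Flt3-L 11 days array 1 (0.012) and Plau without Flt3-L 48 h array 1 (0.027), CsA 12 h array 3 (0.040) or CsA 48 h array 3 (0.012). Plau was also called under 6 of 9 other settings (0.0085 to 0.046), and Mmp12 with a replicate block (0.0099). Comparing 11 days with the mean of the early times called 5 genes lower and 2 higher, against 6.70% and 5.21% of all genes, and the 2 were Mmp14 and Timp2. With a replicate block Mmp12 (-0.35, adjusted p = 0.0033) and Timp1 (-0.45, 0.045) were called lower too, and so was Timp1 without Flt3-L 11 days array 1 (-0.77, 0.0017). The Timp2 call (0.27 ± 0.07, adjusted p = 0.015) was lost without Flt3-L 11 days array 2 (0.054) or CsA 11 days array 3 (0.064) and with array medians subtracted (0.11).

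The order of the 9 groups summarises each gene. Mmp12, Mmp19, Timp1, Timp2, Plau and Mmp13 were highest in the 11-day cultures without CsA, and in all 6 the 11-day CsA cultures came next. Those 2 groups overlapped for Timp1 and Timp2 only. Below them, each neighbouring pair of Mmp13 groups overlapped, although groups further apart in the order did not all overlap. For Mmp12 the neighbours that overlapped were the pairs with and without CsA at 12 h, at 24 h and at 48 h. The same held for Mmp19. Fn1 was highest in unstimulated cells, then in the 11-day, 12 h and 24 h cultures without CsA, all separate, while the 12 h CsA, 11-day CsA, 48 h and 24 h CsA groups overlapped in turn and the 48 h CsA group lay lowest. Adam19 had its 4 CsA groups at the bottom, with the upper of them overlapping unstimulated cells. For Mmp14 the groups from 48 h without CsA, the highest, down to 12 h without CsA overlapped in turn, and the 12 h CsA group and unstimulated cells lay apart below them. Plaur ran from the 12 h CsA group down to the 11-day CsA group, and the 5 groups of the early times that led it overlapped in turn.

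The short promoter windows of 4 genes are shown, picked because all 4 were lower with CsA at 11 days and each holds the AP-1 motif TGANTCA. Any part of this motif in the CsA differences was not tested. Fn1, Mmp19 and Plau were lower at 11 days too, and no window was found for them. RefSeq windows (GRCm38.p6) were found for 7 of the 10 genes, Adam19, Mmp12, Mmp13, Mmp14, Plaur, Timp1 and Timp2, with 10 start sites between them. The sequences end at the base before the start, on the plus strand, with the motif in capitals.
Mmp13, chr9:7272414-7272513: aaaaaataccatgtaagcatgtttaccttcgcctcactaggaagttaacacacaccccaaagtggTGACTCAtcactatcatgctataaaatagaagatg
Mmp12, chr9:7347274-7347373: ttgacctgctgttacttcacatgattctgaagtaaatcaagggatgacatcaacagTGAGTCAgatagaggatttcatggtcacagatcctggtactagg
Plaur, chr7:24462383-24462482: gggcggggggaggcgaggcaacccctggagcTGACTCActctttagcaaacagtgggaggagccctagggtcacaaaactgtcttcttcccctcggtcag
Adam19, chr11:46055834-46055983: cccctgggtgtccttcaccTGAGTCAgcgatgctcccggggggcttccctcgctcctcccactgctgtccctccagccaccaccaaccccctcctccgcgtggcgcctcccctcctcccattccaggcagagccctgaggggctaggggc
The motif begins 35 bases before the start in Mmp13, 44 in Mmp12, 69 in Plaur and 131 in Adam19. It reads alike on both strands, and 6.75% of 32851 RefSeq windows of 250 bases before a start held it. The other start of Mmp12 and the other 2 of Adam19 did not hold it, nor did the windows of Mmp14, Timp1 and Timp2. The NFAT core GGAAA, searched on both strands and overlapping none of these motifs, was in 5 of the 10 windows and in 55.6% of all windows. These matches describe letters in a window, and binding was not measured here.

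Lists of related genes were counted beside the 10, with the same calls. At 11 days with CsA 7.08% of all genes were called lower and 4.92% higher, the shares to set beside each count that follows. CsA cultures had 3 of 18 other MMP genes lower and 1 higher, and the 3 were Mmp9 (-1.28 ± 0.11), Mmp25 (-1.10 ± 0.15) and Mmp8 (-0.75 ± 0.08). Of neutrophil markers 7 of 9 were also lower, and of conventional dendritic cell markers 9 of 9. Any link to these MMP genes was not tested. The 1 higher MMP gene was Mmp27 (0.57 ± 0.11), named here after its value was seen, as are Itga8, Itgb2, Nid1, Srgn, Tgm2 and Emilin2 in the following counts. Among 13 integrin genes whose products bind fibronectin or the urokinase receptor, 5 were lower, Itgb8 (-1.10 ± 0.09), Itgam (-1.06 ± 0.05), Itgb7 (-0.70 ± 0.07), Itga8 (-0.45 ± 0.08) and Itgb2 (-0.31 ± 0.04), and none was called higher. In the plasminogen system 3 of 9 were lower: St14 (-0.55 ± 0.09), Anxa2 (-0.33 ± 0.08) and S100a10 (-0.28 ± 0.05). Of 18 other matrix protein genes 5 were lower and 2 higher, with Postn (-1.29 ± 0.12), Tgfbi (-0.61 ± 0.08), Thbs1 (-0.48 ± 0.08), Nid1 (-0.28 ± 0.07) and Srgn (-0.27 ± 0.06) lower and Tgm2 (0.42 ± 0.08) and Emilin2 (0.40 ± 0.09) higher. Counts were 2 of 10 lower for MMP activators and partners (Cldn1, -1.31 ± 0.13, and Cd9, -0.59 ± 0.08), 1 of 9 lower for other ADAM genes (Adam8, -0.22 ± 0.06), and 1 of 7 lower for other inhibitors (Cst3, -0.17 ± 0.05). ADAMTS genes had 1 of 18 lower and 2 higher, with Adamts10 at -0.32 ± 0.06, Adamts1 at 0.62 ± 0.12 and Adamts9 at 0.27 ± 0.07. None of 8 cathepsin genes was called by limma at 11 days. Some counts lay near the shares of all genes, such as ADAMTS genes lower (5.6%) and other MMP genes higher (5.6%). The list medians lay between -0.11 (integrins) and 0.10 (other ADAM and ADAMTS genes), beside 0.03 over all genes.

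**Figure D4:**
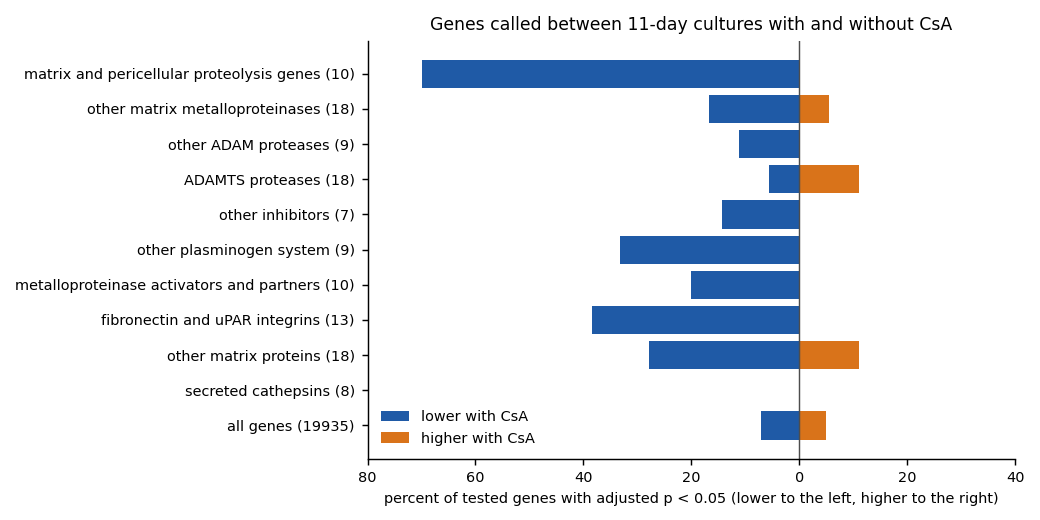
Percent of tested genes called lower (left) or higher (right) in 11-day cultures with CsA than without, for the 10 genes, 9 lists of related genes and all genes, with the number tested in brackets. The 10 genes stand at 70% lower, a share that their choice with results known bears on, and all genes at 7.08% lower and 4.92% higher.

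At the early times these lists held calls in both directions. Vcan, a matrix proteoglycan gene, was lower with CsA at 12 h (-0.78 ± 0.18) and 48 h (-1.62 ± 0.18). Serpinb2, which encodes an inhibitor of urokinase, was lower at 48 h (-1.79 ± 0.22). Lrp1, an endocytic receptor that clears protease and inhibitor complexes, was lower at 12 h (-0.32 ± 0.06), as were the integrin genes Itga8 (-0.40 ± 0.08) and Itgav (-0.38 ± 0.07). Itgb5, another integrin gene, was higher at 12 h (0.20 ± 0.05) and 24 h (0.24 ± 0.05), as were Cldn1 at 24 h (0.45 ± 0.13) and Adam15 at 48 h (0.20 ± 0.06). The other early calls were all lower with CsA, by -0.14 to -0.40: Mmp10, Mmp28, Adam17, Adamts17, Cst3 and Ctss at 12 h, Mmp11, Adam8 and S100a10 at 24 h, and Adamts6 and Itgb2 at 48 h. Over the whole Flt3-L culture without CsA, 7 of 8 cathepsin genes were higher at 11 days than in unstimulated cells, among them Ctsl (3.31 ± 0.08), against 27.2% of all genes, and none was called lower, against 24.8%. Integrins were higher in 7 of 13 cases (53.8%) and lower in 2 (15.4%), with Itgb5 at 3.35 ± 0.05. Of 7 other inhibitors 2 were higher, among them Cst3 (0.70 ± 0.05), and 3 lower, among them Serpinb2 (-2.77 ± 0.22) and Timp3 (-2.03 ± 0.23).

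Markers of several cell types also differed with CsA at 11 days, and the markers named here were picked after their values were seen. Of all genes, 7.08% were called lower and 4.92% higher with CsA at 11 days. These shares were 2.34% and 2.17% at 48 h, 2.19% and 1.60% at 24 h, and 3.91% and 2.82% at 12 h. The summed signal of 9 conventional dendritic cell markers was 8129 to 10089 with CsA and 14749 to 15851 without, and 9 of 9 were called lower. For 9 neutrophil markers it was 650 to 844 against 1756 to 1968, with 7 lower. Osteoclast markers summed to 8043 to 8345 against 9841 to 10399, with 2 of 6 lower, Acp5 and Dcstamp. Monocyte and macrophage markers summed to 47224 to 48087 against 44747 to 46137, with 1 of 12 lower (Ccr2) and none higher. Stromal and osteoblast markers summed to 1297 to 1627 against 1171 to 1394, with Sparc lower and Dcn and Cxcl12 higher of 13. B lineage markers summed to 411 to 439 against 1292 to 1606, with 4 of 5 lower (Cd79a by -2.30 ± 0.10). Mast cell, basophil and eosinophil markers summed to 442 to 486 against 636 to 760, with 5 of 8 lower. T and NK cell markers had 3 of 6 lower and 1 higher, and their sums overlapped, at 954 to 1102 and 742 to 1106. Plasmacytoid dendritic cell markers had 3 of 6 lower and 2 higher, megakaryocyte markers 2 of 6 lower, endothelial markers 2 of 5 lower and 1 higher, and erythroid markers 1 of 5 lower. The part of these shifts in the differences of the 10 genes was not tested. At 12 h, when Fn1, Mmp14, Adam19 and Timp2 were lower, the macrophage sum was 9986 to 11356 with CsA and 11488 to 12331 without. Of the 12 macrophage markers 3 were lower (Adgre1, Cd14 and Csf1r). Dendritic cell markers summed to 4323 to 4572 with CsA and 4977 to 5277 without, with 1 of 9 lower (H2-Aa). Osteoclast markers summed to 1008 to 1023 and 1130 to 1268, with 1 of 6 lower (Acp5). Bst2 and Prg2 were lower too, and no marker was called higher at 12 h. At 48 h the macrophage sums overlapped, at 27899 to 29446 with CsA and 28451 to 29864 without. Of the 12 macrophage markers 2 were lower (Cd14, -0.85 ± 0.11, and Ccr2, -0.33 ± 0.09) and 1 higher (Msr1, 0.31 ± 0.08). Also lower were 2 of 9 neutrophil markers, Ly6g (-0.85 ± 0.13) and Cxcr2 (-0.48 ± 0.11). The same held for 1 of 6 plasmacytoid dendritic cell markers (Tcf4) and 1 of 5 endothelial markers (Pecam1). Dendritic cell markers summed to 8502 to 8909 with CsA and 9530 to 9932 without, with 1 of 9 called lower (Cd209a). Osteoclast markers summed to 3593 to 4006 and 4474 to 4790, with 1 of 6 lower (Acp5). The most calls at 48 h were among mast cell, basophil and eosinophil markers, with 7 of 8 lower (2685 to 3097 against 4088 to 4589), and B lineage markers, with 4 of 5 lower (4929 to 6130 against 7447 to 8220). At 24 h, when Fn1, Adam19 and Timp2 were lower, 5 of 8 mast cell, basophil and eosinophil markers were lower (4480 to 4813 against 7860 to 8537). Of the others at 24 h, 2 of 12 macrophage, 2 of 9 dendritic cell, 2 of 9 neutrophil, 1 of 6 osteoclast and 1 of 5 B lineage markers were lower, 1 of 5 erythroid markers was higher, and no stromal marker was called by limma. From unstimulated cells to 12 h, when Fn1 fell, 9 of 13 stromal and osteoblast markers also fell, against 18.1% of all genes. The stromal sum went from 2428 to 2773 down to 1399 to 1436. Falls at 12 h were also called for 80% of erythroid, 83.3% of T and NK cell, 55.6% of neutrophil and 50% of megakaryocyte markers. No B lineage marker fell, and macrophage markers had 6 higher and 4 lower of 12. Fn1 fell on, by -0.78 to 24 h and -0.68 to 48 h, with 1 of 13 stromal markers lower at each step. The stromal sums were then 1283 to 1350 and 1171 to 1273. Any link between these markers and Fn1 was not tested.

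Across the 9 group means, Mmp12 and Plau followed each other most closely among the 10 genes (Pearson r = 0.94), then Mmp19 and Timp1 (0.93), and Plau and Timp2 (0.92). Adam19 reached 0.60 with Fn1 and stayed under 0.24 with each of the other eight. These values describe 9 points that share arrays and a common time course. Among 3717 named genes whose means spanned at least 1 log2 unit, those most like Mmp13 were Lat (0.985), Nxf7 (0.984) and Dcstamp (0.977). Most like Fn1 were Galnt9 (0.888), Cxcl9 (0.877) and Arsb (0.853), and most like Plaur were Plekhg1 (0.974), Itgam (0.960) and Mcts2 (0.953). Mmp14 came closest to Clec4a1 (0.955), Trpv4 (0.928) and Nampt (0.924). Adam19, compared with 3718 genes, came closest to Jaml (0.857), Csf1 (0.830) and Ccr3 (0.778). The other five genes each had 3 others at 0.981 or more, led by Depdc7 for Mmp12, Tm7sf2 for Mmp19, Gpr85 for Timp1, Pltp for Timp2 and Fzd7 for Plau.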

How the data were processed

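Total RNA was labelled with biotin after whole transcript amplification, per the labels' protocols. The deposited intensity values were summarised per probe set and normalised across arrays by the authors with RMA (no version given), per the submitters' processing notes. Values run from 5.2 to 18180.7, and log2 was taken here. Of 28815 probe sets, 21780 had 1 gene symbol in the platform annotation, 1605 several and 5430 none. Each of 19935 genes was represented by its brightest single-symbol probe set on average. A model of 9 group means used limma 3.58.1 under R 4.3.3 (empirical Bayes variances, Benjamini-Hochberg adjustment over all genes of a comparison), and the model was tested on simulated data. The number of arrays limits the precision.

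The 10 genes, the lists and the tests were chosen with earlier results of these data known. Named genes were the 10 in every comparison, up to 3 called genes per list with the largest absolute difference, and for each of the 10 the 3 genes with the highest correlation of group means. Genes of the lists that did not match 1 probe set symbol were not used here. A protein motif search was planned and not run, as no protein sequences were at hand. The plan assumed log2 values, and the deposited ones are linear.

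Replicate numbers were checked for pairing by correlating deviations from group means across genes. Every pair was above 0.1 in 5 comparisons. These were the CsA effect at 24 h (0.346 to 0.398) and at 48 h (0.178 to 0.539), Flt3-L against unstimulated cells at 12 h (0.103 to 0.196) and at 24 h (0.126 to 0.347), and the step from 24 h to 48 h in Flt3-L (0.405 to 0.459). The highest pair of unlike number stood at -0.062, 0.233, 0.033, 0.174 and -0.059, in that order. For the CsA effect at 48 h and for Flt3-L at 24 h it exceeded some pairs of like number, so pairing was not clear there. The labels state no pairing, so the model has no block, and adding one changed no call of the 10 genes in those 5 comparisons. In other comparisons a block did add calls. For the CsA effect at 12 h the pairs stood at 0.19, 0.188 and 0.098, with 0.016 for the highest other pair. There the block called Plaur higher (limma, adjusted p = 0.03). For the CsA effect at 11 days the pairs stood at 0.01, 0.108 and -0.039, with 0.076 for the highest other pair. The numbers thus showed little pairing at 11 days, and every block call that uses the 11-day arrays rests on it. In the step from 24 h to 48 h with CsA the pairs stood at 0.407, 0.387 and 0.054, with 0.059 for the highest other pair. Alternatives were other variance models, array weights, a filter on the dimmest 33.3% of genes, 2 normalizations, averaging probe sets per gene, fitting only the groups compared, a replicate block, and leaving out each array. Python 3.11.15 with pandas 2.3.3 and matplotlib 3.10.9 drew the plots.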

Additional observations from a re-analysis of the deposited data

Results flagged for a closer look

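The CsA difference changed with time in 6 of the 10 genes, by a limma F test over the 4 times (adjusted p given), against 9.82% of all genes. For Mmp13 (8.6e-10) the difference was 0.17, 0.29 and 0.05 at the early times and -2.01 at 11 days. For Plaur (1.1e-05) it was 0.20, 0.14 and 0.11 at the early times and -0.57 at 11 days. For Fn1 (2.1e-05) it was lower throughout, from -0.77 at 24 h to -1.96 at 11 days. For Mmp19 (3.7e-05) it was -0.81 at 11 days alone. For Mmp14 (2.1e-04) it was -0.94 at 12 h and 0.37 at 11 days, and the latter was not called. For Timp2 (0.033) it was -0.42 at 24 h and -0.05 at 11 days, and the call was lost without any of 7 single arrays (adjusted p from 0.053 to 0.097) and with array medians subtracted (0.14).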

How the results depend on the processing

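Of 103 called results of the 10 genes, none changed direction under 9 other settings or with 1 array left out. Across the other settings 904 of 924 values stayed past the threshold, and with 1 array left out 793 of 852. Averaging probe sets could not change the differences of the 10 genes, as each had 1. Timp1, the dimmest of the 10, was removed by the filter on dim genes and so was not tested under that setting. Counts of the 10 genes changed by over 1.5 times, or from or to 0, as follows. With array weights 1 gene was called higher with CsA at 12 h (Plaur) and 1 at 11 days (Mmp14), and quantile normalisation gave 1 at 11 days too. With a replicate block, 1 was higher at 12 h (Plaur, adjusted p = 0.03) and 1 at 11 days (Mmp14, adjusted p = 0.0021), and 2 were lower from 24 h to 48 h with CsA, Plaur being added. The block also called Timp1 lower at 11 days (adjusted p = 0.013), a time at which the replicate numbers showed little pairing. Subtracting array medians left 2 genes lower with CsA at 12 h, 0 lower at 11 days against unstimulated cells, 1 lower from 48 h to 11 days without CsA, and 1 higher for the 11-day minus early difference. With only the groups compared, 1 was lower from 48 h to 11 days without CsA and 1 from 12 h to 24 h with CsA, as after quantile normalisation (Mmp19 lost, adjusted p = 0.051). Leaving out 1 array gave 0 to 1 higher with CsA at 11 days, 0 to 1 lower at 11 days against unstimulated cells, 1 to 2 lower from 48 h to 11 days, 1 to 2 lower from 12 h to 24 h with CsA and 1 to 2 higher for the 11-day minus early difference. Among all genes the 12 h CsA counts moved most: from 562 higher and 779 lower to 1859 and 3442 with array weights, 86 and 91 with only the groups compared, 915 and 1483 with a block, 258 lower with medians subtracted, and 1089 and 2132 without CsA array 3, while leaving out any of the other five arrays cut both counts, the most to 148 higher and 184 lower (CsA array 2) and the least to 289 and 375 (Flt3-L array 2). Calls of all genes in the F test went from 1957 to 3825 with array weights. With medians subtracted, 290 were lower at 24 h (436 before), 271 higher at 48 h (432) and 1066 higher from 12 h to 24 h with CsA (1621). With only the groups compared, counts at 24 h were 135 and 261 (318 and 436 before), at 48 h 183 and 268 (432 and 467), and from 12 h to 24 h with CsA 881 and 1085 (1621 and 1640). With a block 1568 were higher for the 11-day minus early difference (1039 before). Single probe sets of a gene could not be compared, since each of the 10 genes had 1. The cause of these changes was not tested. Signals near the low end, such as Mmp12 in unstimulated cells and Timp1 before 11 days, were not set against a measured background.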
